A study of Mus musculus with 9 samples.

Results

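The BMP, activin and TGF-beta signalling genes considered here are a set of 43 named ligands, receptors, antagonists, Smads and Id targets, of which 40 were measured among 14507 genes. They were found by their symbol in the array's platform annotation, one symbol per probe set, where a probe set is the exon-level unit of the array. Bmp6, Inhbb and Nog had no probe set of their own in the values analysed here. Each gene is represented by the median, per array, of the log2 signals of its probe sets. The compartments were the sebaceous gland (SG), the hair follicle (HF) and the epidermis between follicles, or interfollicular epidermis (IFE), with 3 arrays each and 9 in all. All came by manual dissection from tail epidermis of adult female wild-type mice of matched age, whose strain background was C57BL6/CBA, and the labels name no treatment. The RNA was amplified before labelling. Each array held RNA of pooled pieces of one compartment, and the labels call the arrays biological replicates, so p-values measure the spread between these pools. In such bulk samples, fewer cells of a type and less RNA per cell cannot be told apart.

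Ligands of this family are secreted dimers that bring together type I and type II receptor kinases. BMP receptors phosphorylate Smad1 and Smad5, activin and TGF-beta receptors phosphorylate Smad2 and Smad3, and all of these enter the nucleus with Smad4. Secreted antagonists such as noggin, gremlin, chordin and follistatin bind ligands outside the cell, whereas Smad6 and Smad7 block the pathway inside it. In skin, BMP signals act in hair shaft differentiation and in the rest of follicle stem cells, and TGF-beta restrains keratinocyte growth.

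The sebocyte, suprabasal and hair shaft marker lists were each highest in the titled compartment, although the array names in the sample descriptions name a different compartment for 9 of 9 arrays. Marker lists are given as the mean log2 level of the list relative to the mean of each gene over all arrays. The sebocyte list (14 genes) lay at 1.26 to 1.67 on the SG arrays, at -0.40 to 0.09 on the HF arrays and at -1.55 to -1.16 on the IFE arrays. The suprabasal epidermis list (9 genes) lay at -0.41 to -0.20 in SG, at -0.44 to -0.11 in HF and at 0.37 to 0.75 in IFE. A list of 13 genes of the hair shaft and its inner sheath lay at -1.65, -1.34 and 1.02 on SG replicates 1, 2 and 3, at 2.21 to 2.87 in HF and at -2.04 to -1.93 in IFE. The list of the resting follicle (13 genes) did not separate SG from HF in this way, as it lay at 0.24 to 0.45 in SG, 0.49 to 0.63 in HF and -1.02 to -0.83 in IFE. SG replicate 3 stood apart from the other SG arrays in hair genes, and for some of the genes whose highest SG value it held, values without it are given as well. For the rest of those genes, values without it are not printed here. The median signal of an array ran from 175.9 to 234.2, and scaling the arrays to one median moved the median SG minus IFE difference of all genes from -0.063 to 0.177 on the log2 scale.

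A gene is called changed here at a Benjamini-Hochberg adjusted p under 0.05 in limma, adjusted over all genes, and a log2 difference of at least 1. Between SG and IFE, 8 of 40 pathway genes (20%) changed, beside 9.49% of all genes, 4 of them higher and 4 lower in SG. Between HF and IFE, 4 of 40 (10%) changed, all higher in HF, beside 6.31% of all genes. Between SG and HF, 4 of 40 changed, all lower in SG, beside 5.11% of all genes. By direction, the background was 2.54% higher and 6.96% lower for SG against IFE, 2.96% higher and 3.36% lower for HF against IFE, and 1.81% higher and 3.3% lower for SG against HF. None fell in HF against IFE, where limma gave 3 with an unadjusted p under 0.05 in that direction, and none rose in SG against HF, where it gave 1. The 40 genes had a median log2 difference of -0.31 for SG minus IFE, 0.08 for HF minus IFE and -0.37 for SG minus HF, beside -0.063, -0.071 and -0.017 over all genes. The SG minus IFE median depended on brightness and scaling. With the dimmer 50% of genes left out, it was -0.40 for the 24 pathway genes tested, beside -0.268 over all genes. With the arrays scaled to one median it was -0.07 for the 40 genes, beside 0.177 over all genes. The 3 comparisons share arrays, so their counts are not separate evidence. In all, 12 of the 40 genes changed in at least one comparison. These shares depended on how probe sets were summarised: for SG against IFE, 7.5% of the pathway genes changed beside 8.49% of all genes with the mean over probe sets, and 7.5% beside 8.57% with each probe set centred first. For HF against IFE, 2.5% changed beside 7.33% of all genes with the brightest probe set of each gene.

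**Figure D1:**
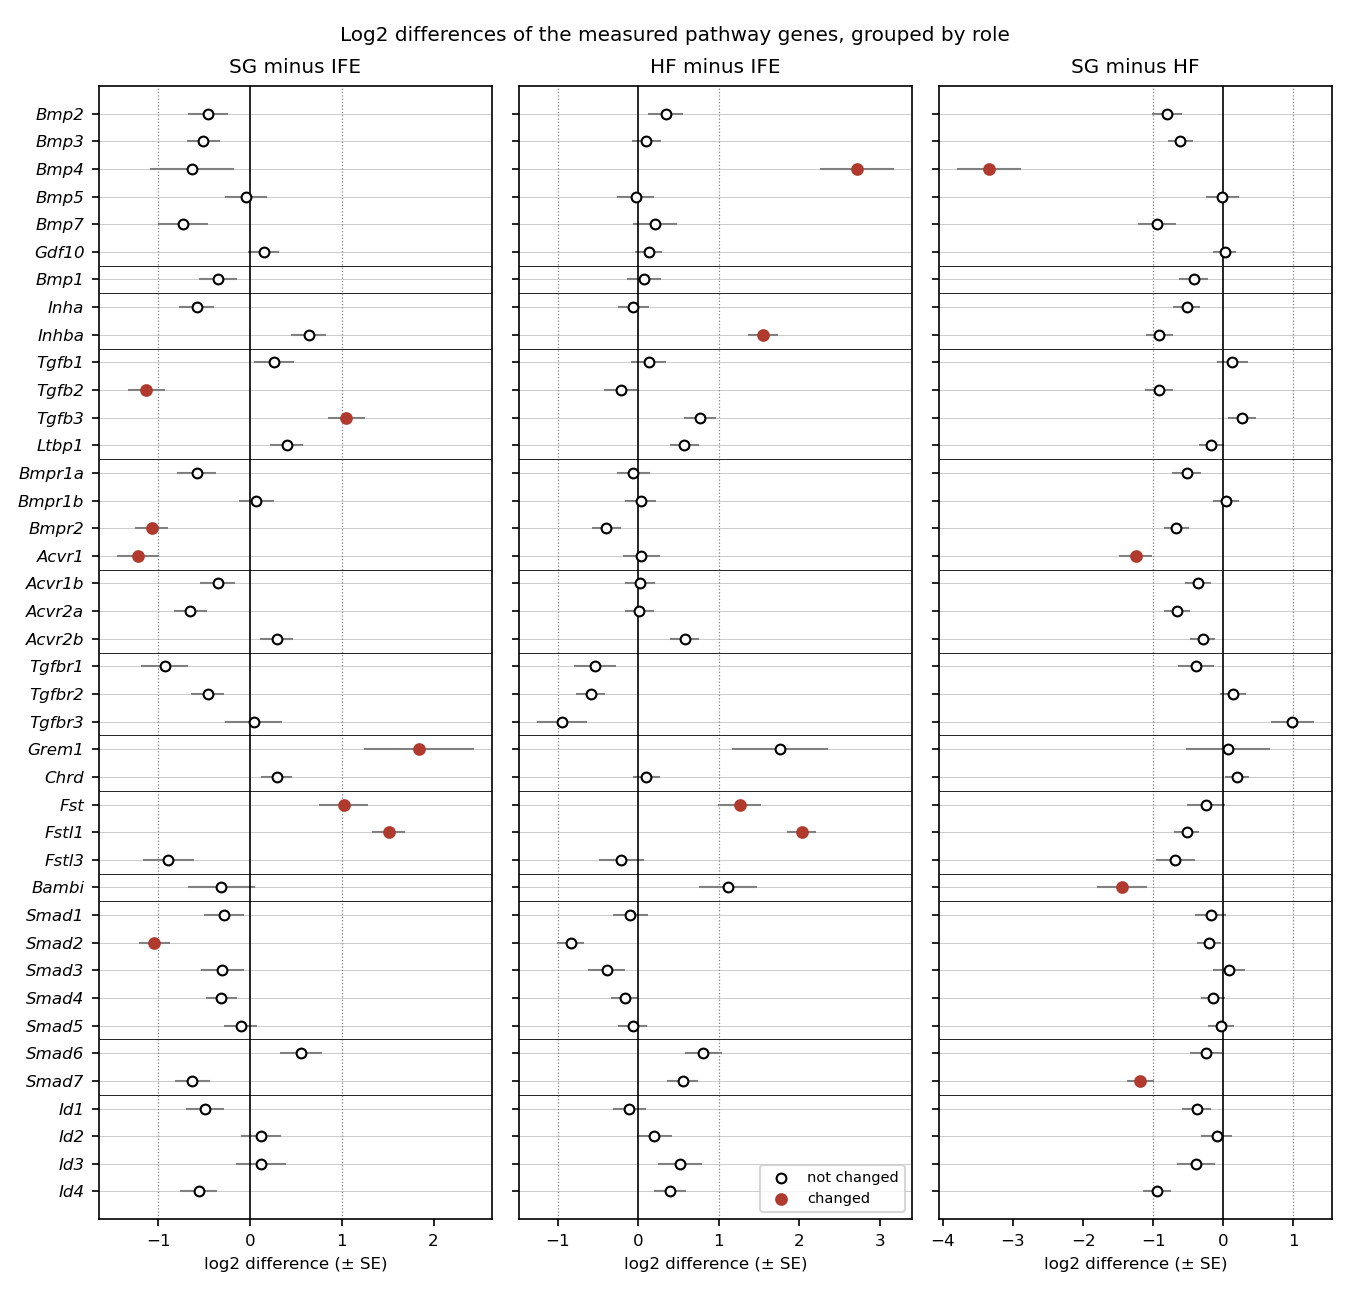
Log2 difference (x axis, ± SE of the limma fit) of the 40 measured genes, one per line and grouped by role, for SG minus IFE, HF minus IFE and SG minus HF; filled red points changed and open points did not. Bmp4 lies farthest from 0 in the HF panels, at 2.72 for HF minus IFE and -3.34 for SG minus HF.

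The promoters of 5 changed genes are shown as the 250 bases before the start in the RefSeq table of build GRCm38.p6, because these genes lead the follicle, TGF-beta ligand and receptor results below. Capitals mark CAGAC on either strand, a Smad-binding sequence, and GGCGCC, a GC-rich sequence bound by BMP Smads that reads the same on both strands. The 2 can overlap by 1 base. The submitters' notes name another build, mm9, for the array.
Bmp4 (chr14:46390670-46390919, minus strand): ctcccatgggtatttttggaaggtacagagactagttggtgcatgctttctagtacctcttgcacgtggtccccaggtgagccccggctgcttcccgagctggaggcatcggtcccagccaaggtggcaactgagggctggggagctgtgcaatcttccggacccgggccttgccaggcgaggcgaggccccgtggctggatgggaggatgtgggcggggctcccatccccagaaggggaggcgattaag
Inhba (chr13:16011601-16011850, plus strand): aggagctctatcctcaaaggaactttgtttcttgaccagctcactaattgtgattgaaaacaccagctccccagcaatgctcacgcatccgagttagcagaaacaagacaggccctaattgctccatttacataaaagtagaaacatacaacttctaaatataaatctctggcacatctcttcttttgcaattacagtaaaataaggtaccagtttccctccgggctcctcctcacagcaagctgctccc
Fstl1 (chr16:37776805-37777054, plus strand): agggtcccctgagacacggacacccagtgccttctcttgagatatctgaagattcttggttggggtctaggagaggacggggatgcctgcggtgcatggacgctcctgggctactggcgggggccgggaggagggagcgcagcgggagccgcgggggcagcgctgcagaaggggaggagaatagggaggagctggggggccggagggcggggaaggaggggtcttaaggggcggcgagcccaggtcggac
Tgfb2 (chr1:186705990-186706239, minus strand): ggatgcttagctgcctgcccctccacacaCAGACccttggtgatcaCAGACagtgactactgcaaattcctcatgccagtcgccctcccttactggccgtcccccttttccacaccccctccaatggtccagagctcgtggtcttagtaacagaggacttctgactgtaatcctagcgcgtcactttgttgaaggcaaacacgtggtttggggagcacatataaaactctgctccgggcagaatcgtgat
Bmpr2 (chr1:59764029-59764278, plus strand): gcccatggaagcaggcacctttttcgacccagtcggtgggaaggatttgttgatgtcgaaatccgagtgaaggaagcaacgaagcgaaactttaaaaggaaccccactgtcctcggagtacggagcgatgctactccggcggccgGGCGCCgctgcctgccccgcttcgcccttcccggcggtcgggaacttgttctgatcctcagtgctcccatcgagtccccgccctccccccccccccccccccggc
The window of Tgfb2 held 2 copies of CAGAC and that of Bmpr2 held 1 copy of GGCGCC, whereas those of Bmp4, Inhba and Fstl1 held neither, which says only that these letters are not in these windows. Over the 32851 windows of the table, 42.2% held CAGAC and 9.6% held GGCGCC. The 28 pathway genes with a window had 34 windows, of which 16 (47.1%) held CAGAC and 8 (23.5%) held GGCGCC. A window was found for 7 of the 12 changed genes.

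Among the BMP ligands of this set of genes, Bmp4 was the one that changed, with its level in HF above both other compartments. Bmp4 had log2 signals of 5.41, 5.40 and 7.40 on the SG arrays, 9.56, 8.76 and 9.92 on the HF arrays and 6.78, 6.63 and 6.66 on the IFE arrays. Every HF array lay above every SG and IFE array. Bmp4 was 6.58-fold higher in HF than in IFE (log2 difference 2.72 ± 0.46 SE, n = 3 per group, limma adjusted p = 0.00224). It was 10.2-fold lower in SG than in HF (-3.34 ± 0.46, adjusted p = 0.00114). All 5 Bmp4 probe sets shared these directions, with differences of 2.33 to 3.28 for HF minus IFE and of -3.60 to -2.40 for SG minus HF. The high SG value was that of replicate 3, the SG array with hair genes. With all arrays the SG minus IFE difference of Bmp4 did not pass (-0.63 ± 0.46, adjusted p = 0.362). Without SG replicate 3 it was -1.29 (adjusted p = 0.00684), and the SG minus HF difference was -4.01. Bmp4 kept both of its calls in each of the 21 alternatives tried.

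The other BMP ligands differed less. Bmp2, a ligand made by epidermal cells, had 8.52, 8.29 and 7.89 in SG and 8.85, 9.15 and 9.09 in HF, groups that did not overlap, with a log2 difference of -0.80 ± 0.22 that passed the p threshold (adjusted p = 0.0449) but not the size. Bmp7, another secreted BMP, had 7.79, 8.44 and 9.00 in SG and 9.04, 9.53 and 9.47 in HF (-0.94 ± 0.27, adjusted p = 0.0475). Its highest SG value again stood on replicate 3, without which the difference was -1.23 (adjusted p = 0.00551). Bmp7 also passed against IFE without that array (-1.02, adjusted p = 0.00898, against -0.73 and adjusted p = 0.0716 with it). Bmp3, which opposes other BMPs, had -0.51 ± 0.18 for SG minus IFE and -0.61 ± 0.18 for SG minus HF, with adjusted p of 0.0678 and 0.0578. Bmp5 and Gdf10, a BMP3 relative, lay between -0.04 and 0.15 in all comparisons. The protease Bmp1, which trims procollagen and cleaves chordin, had -0.35 for SG minus IFE, 0.07 for HF minus IFE and -0.42 for SG minus HF, and passed in none. Its brightest probe set passed as lower in SG than in IFE (-1.08, adjusted p = 0.0117) and than in HF (-1.19, adjusted p = 0.0139), while the medians over its 21 probe sets were -0.52 and -0.51.

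**Figure D2:**
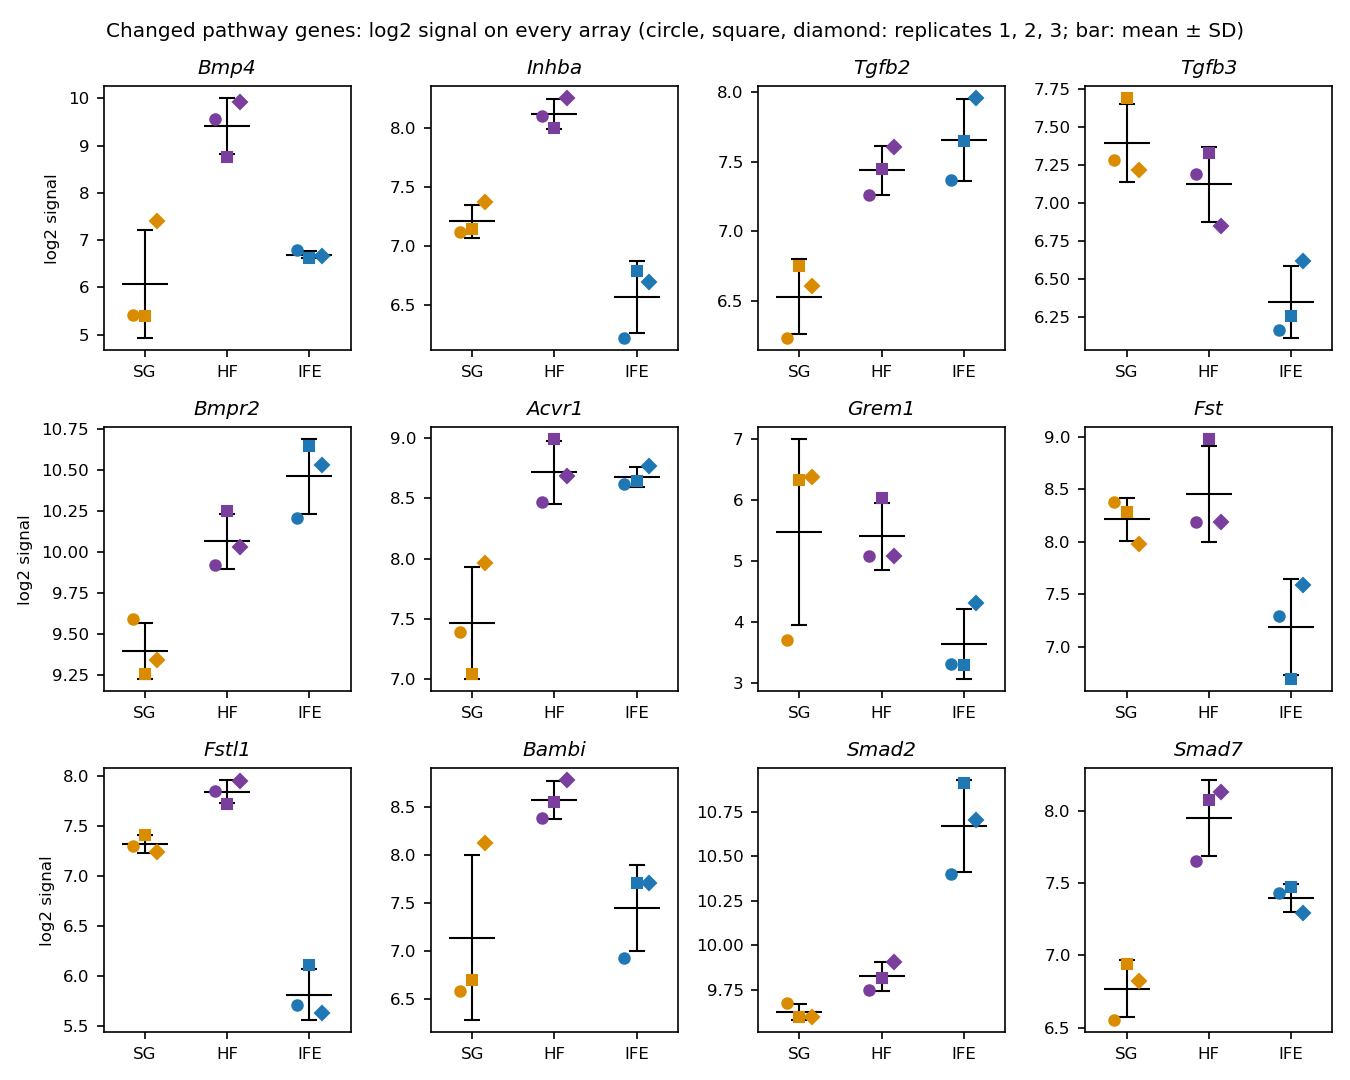
Log2 signal (y axis, own range per gene) of the 12 changed genes on the SG, HF and IFE arrays; each symbol is one array (circle, square and diamond for replicates 1, 2 and 3) and the black line and bar give the mean ± SD. Bmp4 and Inhba stand highest on the HF arrays, Smad2 on the IFE arrays, and SG replicate 3 lies above the other SG arrays for Bmp4 and Bambi.

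Activins are dimers of inhibin beta subunits, and Inhba, which encodes the beta A subunit, was highest in HF. It had 7.12, 7.14 and 7.37 on the SG arrays, 8.10, 8.00 and 8.25 on the HF arrays and 6.22, 6.79 and 6.70 on the IFE arrays. The SG arrays lay between the other groups and overlapped neither. Inhba was 2.92-fold higher in HF than in IFE (log2 difference 1.55 ± 0.19, adjusted p = 0.000244). The difference was 0.64 ± 0.19 for SG minus IFE (adjusted p = 0.0304) and -0.91 ± 0.19 for SG minus HF (adjusted p = 0.0101), both past the p threshold and short of the size threshold. Without SG replicate 3, which held the highest SG value, SG minus IFE lost the p threshold (0.56, adjusted p = 0.0751). SG minus HF kept it (-0.99, adjusted p = 0.0096). Of its 5 probe sets, 4 were higher in HF than in IFE by 1.28 to 2.87, whereas the brightest one differed by 0.08. Inha, the alpha subunit that turns activin into inhibin, had -0.58 ± 0.19 for SG minus IFE (adjusted p = 0.0529) and -0.06 for HF minus IFE, and did not pass. For SG minus HF it had -0.52 ± 0.19 (adjusted p = 0.129). Its highest SG value stood on replicate 3. Without that array, Inha passed the p threshold alone against IFE (-0.74, adjusted p = 0.0191) and HF (-0.68, adjusted p = 0.0447).

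The TGF-beta ligands divided, with Tgfb3 higher and Tgfb2 lower in SG than in IFE. Tgfb3 had 7.28, 7.69 and 7.22 in SG, 7.19, 7.33 and 6.85 in HF and 6.17, 6.26 and 6.62 in IFE, which overlapped neither of the others. The difference was 1.05 ± 0.20 for SG minus IFE (adjusted p = 0.0035) and 0.77 ± 0.20 for HF minus IFE (adjusted p = 0.0275, short of the size threshold). All 7 Tgfb3 probe sets were higher in SG than in IFE, by 0.28 to 2.36. The brightest of them gave the smallest difference, 0.28, and taken alone did not pass (adjusted p = 0.551), and for HF minus IFE it gave -0.37. Without SG replicate 2 or IFE replicate 1 the SG minus IFE difference was 0.90 or 0.96, below the size threshold.

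Tgfb2 had 6.23, 6.75 and 6.61 in SG, 7.26, 7.45 and 7.61 in HF and 7.37, 7.65 and 7.96 in IFE, and the SG arrays lay below all others. The difference was -1.13 ± 0.20 for SG minus IFE (adjusted p = 0.0023) and -0.91 ± 0.20 for SG minus HF (adjusted p = 0.015, short of the size threshold). Its 12 probe sets did not move together, as 4 were lower in SG than in IFE by 1 or more, down to -2.86, while 3 lay at 0.03 to 0.14. The median of the 12 probe set differences was -0.61, and the brightest probe set gave 0.03 (adjusted p = 0.939). The call also ended without SG replicate 1 (-0.98) or IFE replicate 3 (-0.99) and with the arrays scaled to one median (-0.90). It ended too with a block for the letter that ends each array's name, called the letter block from here on (-0.84, adjusted p = 0.0643). The letters of HF replicate 1 (a), SG replicate 1 (b) and IFE replicate 3 (e) occurred on no other array. The letter block therefore drew its differences from the arrays with letters c and d alone. Tgfb1, the most widely expressed TGF-beta, lay at 0.13 to 0.26 in all 3 comparisons, and Ltbp1, which holds latent TGF-beta in the matrix, had 0.57 ± 0.18 for HF minus IFE (adjusted p = 0.06).

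Of the receptors, the type II BMP receptor Bmpr2 and the type I receptor Acvr1 changed, both lower in SG than in IFE. Not all receptors lay lower there, as Bmpr1b (0.07), Acvr2b (0.29) and Tgfbr3 (0.04) did not for SG minus IFE. Bmpr2 had 9.59, 9.26 and 9.34 on the SG arrays and 10.21, 10.65 and 10.53 on the IFE arrays (log2 difference -1.07 ± 0.18, adjusted p = 0.00157). The HF arrays, at 9.92, 10.25 and 10.03, lay above the SG arrays (-0.67 ± 0.18, adjusted p = 0.0371), and the HF minus IFE difference was -0.40 (adjusted p = 0.19). All 16 Bmpr2 probe sets were lower in SG than in IFE, with differences of -1.70 to -0.40. Acvr1 had 7.39, 7.04 and 7.96 in SG, 8.47, 8.99 and 8.68 in HF and 8.62, 8.64 and 8.77 in IFE. It was 2.32-fold lower in SG than in IFE (-1.22 ± 0.23, adjusted p = 0.00316) and 2.38-fold lower than in HF (-1.25 ± 0.23, adjusted p = 0.00564), with no overlap. Between HF and IFE Acvr1 differed by 0.04 ± 0.23. Of its 17 probe sets, 15 were lower in SG than in IFE and 16 lower in SG than in HF. Both Acvr1 calls ended with the letter block (adjusted p = 0.0587 against IFE and 0.061 against HF), and the brightest probe set gave -0.76 for SG minus IFE (adjusted p = 0.0753). With the mean over probe sets, or with each probe set centred first, SG minus IFE was -0.95, short of the size threshold.

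Bmpr1a, the main type I BMP receptor of the follicle, had -0.58 ± 0.21 for SG minus IFE (adjusted p = 0.0648), and Bmpr1b lay at 0.03 to 0.07 in all comparisons. The activin receptor Acvr2a had 8.79, 8.89 and 8.88 in SG and 9.39, 9.66 and 9.46 in IFE, groups without overlap, and passed the p threshold alone (-0.65 ± 0.18, adjusted p = 0.0211). Its SG minus HF difference was -0.66 ± 0.18 (adjusted p = 0.0364). Acvr1b and Acvr2b did not pass, with Acvr2b at 0.58 ± 0.18 for HF minus IFE (adjusted p = 0.0553). Tgfbr1, the TGF-beta type I receptor, had 6.19, 7.03 and 6.86 in SG and 7.38, 7.43 and 8.07 in IFE (-0.93 ± 0.26, adjusted p = 0.0242). That difference passed the size threshold too without SG replicate 2 (-1.10), SG replicate 3 (-1.01), IFE replicate 1 (-1.05) or IFE replicate 2 (-1.03). Over all fits without a single array, however, it came as near to 0 as -0.68, with adjusted p up to 0.106. The brightest Tgfbr1 probe set gave -0.24 for SG minus IFE and 0.37 for HF minus IFE. Tgfbr2, the type II receptor, had -0.46 for SG minus IFE and -0.59 for HF minus IFE, neither of which passed. Its brightest probe set went the other way, at 1.04 for SG minus IFE (adjusted p = 0.00488) and 0.54 for HF minus IFE, while 9 and 8 of its 12 probe sets were lower, so no direction is given for Tgfbr2. The co-receptor Tgfbr3 had -0.95 ± 0.31 for HF minus IFE (adjusted p = 0.0673). Tgfbr3 was the one gene on the list that came to lie higher in SG than in HF without SG replicate 3 (1.30, adjusted p = 0.0123, against 0.99 and adjusted p = 0.0678 with it).

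With the arrays scaled to one median or quantile normalized, the SG minus IFE differences of Bmpr2 (-0.83 and -0.66), Acvr1 (-0.98 and -0.92) and Smad2 (-0.80 and -0.63) fell short of the size threshold, though in those fits their adjusted p stayed under 0.05. Bmpr2 and Smad2 also did so without IFE replicate 2 (-0.98 and -0.93).

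Among the antagonists, the follistatins Fst and Fstl1 were higher in both appendage compartments than in IFE. Follistatin, encoded by Fst, binds activin and some BMPs, and Fstl1 encodes a related secreted glycoprotein. Fstl1 had 7.30, 7.41 and 7.24 in SG, 7.85, 7.72 and 7.95 in HF and 5.71, 6.11 and 5.63 in IFE, with no overlap between any of the groups. It was 2.84-fold higher in SG than in IFE (log2 difference 1.51 ± 0.18, adjusted p = 0.000149) and 4.08-fold higher in HF than in IFE (2.03 ± 0.18, adjusted p = 3.24e-05). The SG minus HF difference of -0.52 ± 0.18 did not pass (adjusted p = 0.0902). Fstl1 probe sets shared the direction for HF minus IFE, 11 of 11, but ranged from 0.09 to 4.35, with a median of 1.34. For SG minus IFE, 10 of 11 were higher, with a median of 0.54. When each probe set was first centred on its own mean, the SG minus IFE difference of Fstl1 was 0.57 (adjusted p = 0.0375), below the size threshold, and the mean over probe sets gave 0.87. The brightest probe set gave 0.57 for HF minus IFE (adjusted p = 0.0524).

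Fst had 8.38, 8.28 and 7.98 in SG, 8.19, 8.98 and 8.19 in HF and 7.29, 6.69 and 7.59 in IFE. SG and HF overlapped each other, and both lay above all IFE arrays. The difference was 1.02 ± 0.27 for SG minus IFE (adjusted p = 0.0186) and 1.26 ± 0.27 for HF minus IFE (adjusted p = 0.00944). Of the 8 Fst probe sets, 7 exceeded IFE in SG and 8 exceeded it in HF. Still, both calls fell short of the size threshold under other summaries of the probe sets. SG minus IFE was 0.86 with the mean over probe sets and 0.99 with each probe set centred first. HF minus IFE was 0.99 with the mean and 0.89 with the brightest probe set. The SG call ended on leaving out the first SG array (adjusted p = 0.0591), the SG array numbered 2 (adjusted p = 0.0579) or the IFE array numbered 2 (adjusted p = 0.0867), and the HF call reached a difference of 1.00, just short of the threshold, without HF replicate 2.

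Fstl3, another follistatin that binds activins, was low on 2 of the SG arrays. It had 6.76, 6.81 and 7.99 in SG, 7.86, 7.98 and 7.76 in HF and 8.14, 7.98 and 8.10 in IFE. With all arrays it was below IFE in SG by less than the size threshold (-0.89 ± 0.28, adjusted p = 0.04), and without SG replicate 3 it was lower than both IFE (-1.29, adjusted p = 0.000431) and HF (-1.08, adjusted p = 0.00186). The SG minus HF difference with all arrays was -0.68 ± 0.28 (adjusted p = 0.165). With all arrays, 4 of the 5 Fstl3 probe sets were lower in SG than in IFE, 1 of them by 1 or more. Against HF 4 were lower too, 0 of them by 1 or more. The brightest probe set went the other way, at 0.05 against IFE and 0.22 against HF.

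The gremlin gene Grem1, whose product binds BMP2 and BMP4, had a single and dim probe set, whose mean signal lay at percentile 1.4 of all genes. It had 3.71, 6.33 and 6.38 in SG, 5.09, 6.04 and 5.08 in HF and 3.31, 3.30 and 4.31 in IFE. SG replicate 1 overlapped the IFE arrays, and the SG minus IFE call (1.84 ± 0.60, adjusted p = 0.0457) ended without any 1 of 6 arrays, with adjusted p of 0.165 without SG replicate 2, 0.125 without SG replicate 3, 0.0586 and 0.0613 without HF replicates 1 and 3, and 0.103 and 0.147 without IFE replicates 1 and 2. The HF arrays all lay above the IFE arrays (1.76 ± 0.60, adjusted p = 0.0775). That difference passed with the replicate block (adjusted p = 0.0303), the letter block (2.26, adjusted p = 0.00366), median centring (1.87, adjusted p = 0.0455), array weights (1.45, adjusted p = 0.0293) or without SG replicate 1 (adjusted p = 0.00431). Chrd, which encodes the BMP antagonist chordin, lay between 0.10 and 0.29 and passed in no comparison.

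Bambi encodes a receptor-like membrane protein without a kinase domain, which interferes with BMP, activin and TGF-beta receptors. It had 6.59, 6.70 and 8.13 in SG, 8.39, 8.55 and 8.78 in HF and 6.93, 7.71 and 7.71 in IFE, and the HF arrays lay above all others. The difference was -1.44 ± 0.36 for SG minus HF (adjusted p = 0.0273) and 1.12 ± 0.36 for HF minus IFE, which did not pass (adjusted p = 0.0658). Without SG replicate 3 the SG minus HF difference was -1.93 (adjusted p = 0.000451), and HF minus IFE passed (1.12, adjusted p = 0.00606). The SG minus HF call ended without any other SG array or any HF array (adjusted p of 0.102 and 0.114 without SG replicates 1 and 2, and of 0.0605, 0.0661 and 0.114 without HF replicates 1, 2 and 3). It ended with the letter block as well (-1.25, adjusted p = 0.0687). The Bambi value rested on few probe sets, as 1 of 5 differed by more than 1 (-2.96) and the others by -0.90 to -0.23, with a median of -0.53.

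**Figure D3:**
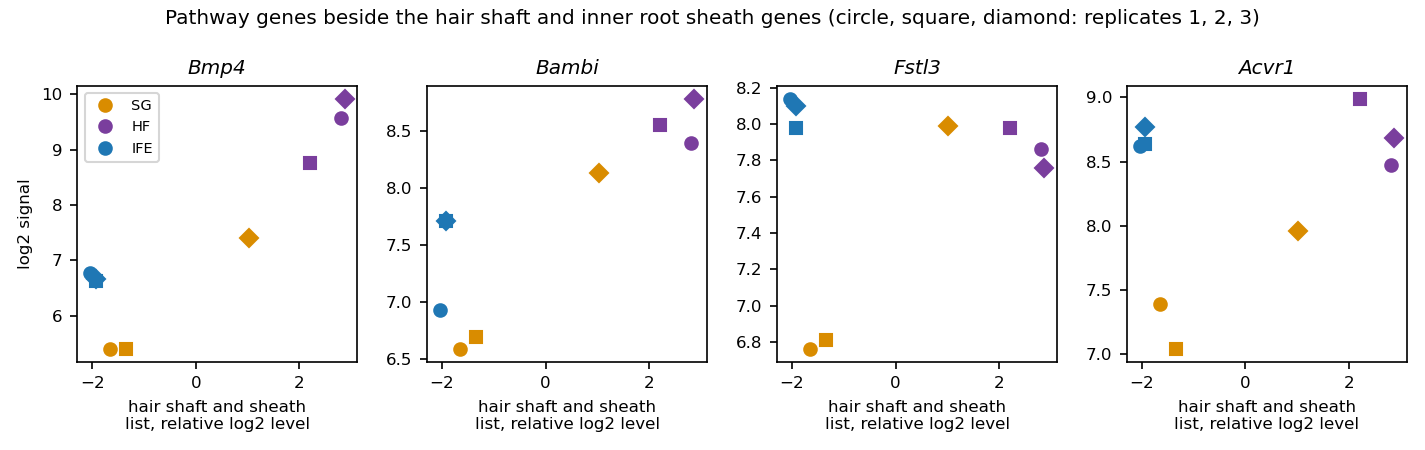
Log2 signal (y axis) of Bmp4, Bambi, Fstl3 and Acvr1 on each array against the mean relative log2 level of 13 genes of the hair shaft and its sheath on the same array (x axis); colours give the compartment and symbols the replicate. SG replicate 3, at 1.02 on the x axis, lies above SG replicates 1 and 2 for all 4 genes, at 7.40 for Bmp4. This follows from the choice of genes, which were among those with their highest SG value on that array.

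For Bmp4, Bambi, Fstl3 and Acvr1 the high SG array was thus the one with hair shaft and sheath genes (1.02 against -1.65 and -1.34). The part of these hair genes in the 4 results was not tested. The 4 genes were taken from those whose highest SG value stood on replicate 3, so this pattern follows from their choice. Other genes went the opposite way, as Bmp2, Bmpr1a, Tgfbr3, Fst and Fstl1 had their lowest SG value on replicate 3. Without SG replicate 3 the SG minus HF differences of Bmp4, Bambi, Fstl3 and Acvr1 were -4.01, -1.93, -1.08 and -1.50. The HF minus IFE differences of Fstl3 and Acvr1 were -0.21 (95% interval -0.82 to 0.40) and 0.04 (-0.47 to 0.54).

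Of the signal transducers, Smad2, which carries activin and TGF-beta signals, was highest in IFE. It had 9.68, 9.60 and 9.60 in SG, 9.75, 9.82 and 9.91 in HF and 10.40, 10.91 and 10.70 in IFE. SG was lower than IFE (-1.04 ± 0.17, adjusted p = 0.00124), and HF lay below IFE by less than the size threshold (-0.84 ± 0.17, adjusted p = 0.00686), with no overlap in either case. All 14 Smad2 probe sets were lower in SG than in IFE, with differences of -1.59 to -0.08. Smad1, Smad3, Smad4 and Smad5 did not pass in any comparison, with differences between -0.39 and 0.08.

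The inhibitory Smads, which BMP and TGF-beta signals induce as feedback, differed from each other. Smad7 had 6.55, 6.94 and 6.82 in SG and 7.65, 8.07 and 8.13 in HF, without overlap (-1.18 ± 0.19, adjusted p = 0.00232), and IFE lay between them at 7.43, 7.47 and 7.29. Against IFE the SG difference was -0.63 ± 0.19 (adjusted p = 0.0306) and the HF difference 0.55 ± 0.19 (adjusted p = 0.0757). Of its 11 probe sets, 5 were lower in SG than in HF by 1 or more, and the median of all 11 was -0.64. Centring each probe set first gave -0.46 (adjusted p = 0.0559). Smad6 had 8.28, 8.25 and 8.01 in HF and 7.36, 7.11 and 7.65 in IFE (0.81 ± 0.23, adjusted p = 0.0417), and 8.28, 7.43 and 8.10 in SG, which overlapped both.

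The Id genes, helix-loop-helix inhibitors that BMP signals switch on in many cells, changed in none of the comparisons, including HF against IFE, where Bmp4 rose. In limma, an unadjusted p under 0.05 was found for 2 of the 4 in SG against IFE, for 0 in HF against IFE and for 1 in SG against HF, all lower in SG. The 95% intervals of the HF minus IFE differences were -0.58 to 0.35 for Id1, -0.28 to 0.69 for Id2, -0.07 to 1.10 for Id3 and -0.05 to 0.83 for Id4. Id3 had 7.14, 7.49 and 8.37 in SG, where replicate 3 was again the highest, 7.99, 8.10 and 8.07 in HF and 7.79, 7.49 and 7.34 in IFE. Its SG minus HF difference was -0.39 (adjusted p = 0.431) with all arrays and -0.74 (adjusted p = 0.0327) without SG replicate 3, past the p threshold and short of the size threshold. Id4 had 9.38, 9.52 and 9.54 in SG and 10.62, 9.97 and 10.69 in HF, without overlap, and passed the p threshold alone (-0.95 ± 0.20, adjusted p = 0.0116). Without HF replicate 2 that difference was -1.17 (adjusted p = 0.00349).

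**Figure D4:**
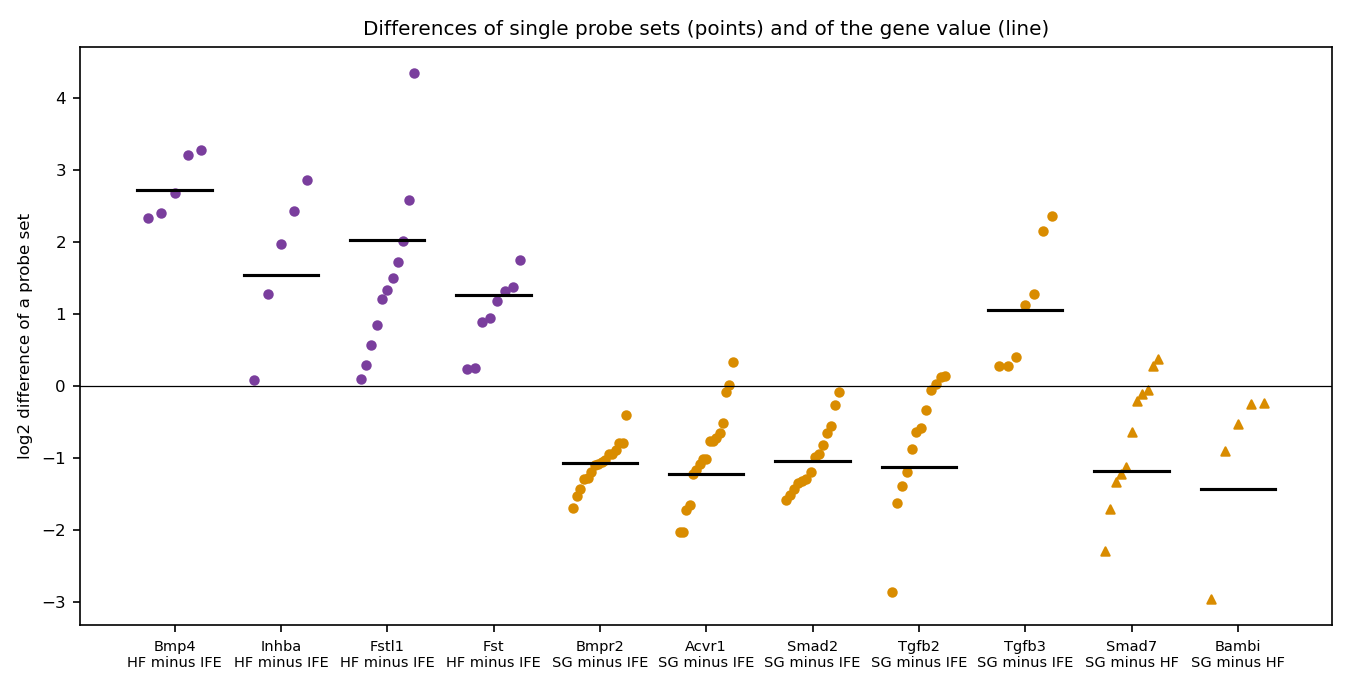
Log2 difference of each probe set (points, y axis) for 11 of the changed genes, with the difference of the gene value as a black line; violet marks HF minus IFE, orange circles SG minus IFE and orange triangles SG minus HF. Bmp4 and Bmpr2 probe sets lie on one side of 0 and close to the line, whereas those of Fstl1 run from 0.09 to 4.35 and those of Tgfb2 from -2.86 to 0.14.

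The plot of single probe sets shows how far a gene value stands for its exons. For Bmpr2 the median of the probe set differences equalled the gene's difference (-1.07), and for Bmp4 (2.69 against 2.72), Smad2 (-1.10 against -1.04) and Tgfb3 (1.12 against 1.05) it was close to it. For Fstl1 (1.34 against 2.03 for HF minus IFE), Tgfb2 (-0.61 against -1.13), Smad7 (-0.64 against -1.18) and Bambi (-0.53 against -1.44) it was smaller, and for Inhba it was larger (1.98 against 1.55).

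Other genes of the pathway were taken from a second list of 94, of which 80 were measured. Between SG and IFE, 2 rose and 5 fell in SG (8.75% beside 9.49% of all genes). The 2 that rose were Timp3, a metalloprotease inhibitor (1.65 ± 0.19, adjusted p = 0.000121), and Ccn2, the TGF-beta target connective tissue growth factor (1.26 ± 0.19, adjusted p = 0.000655). Those that fell were the Smad co-repressor Skil (-1.79 ± 0.21, adjusted p = 0.000152), the target Junb (-1.39), Neo1, which encodes the RGM receptor neogenin (-1.37), the integrin subunit Itgav, which takes part in activating latent TGF-beta (-1.22), and the TGF-beta binding protein Vasn (-1.10). These falls were not recomputed with the arrays scaled to one median, where the 4 falls of the first list came short of the size threshold.

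Between HF and IFE, 7 rose and 1 fell (10% beside 6.31%). The transcription factor Msx2, a BMP target of the hair matrix, had 11.11, 10.81 and 11.46 in HF and 8.11, 8.31 and 8.37 in IFE (2.86 ± 0.65, adjusted p = 0.0127). It also stands on the hair shaft list. Dlx3, a homeobox gene of hair shaft cells, was higher by 1.38 ± 0.38 (adjusted p = 0.0343). The ligand gene Bmp8a had 9.03, 8.50 and 9.18 in HF and 7.31, 7.32 and 7.15 in IFE (1.64 ± 0.22, adjusted p = 0.000532), and its close copy Bmp8b makes that assignment uncertain. Bmp8b, measured by probe sets of its own, had -0.48 ± 0.24 for HF minus IFE (adjusted p = 0.234). Whether probes of one match the other was not tested. Timp3 (1.72), the BMP modulator Smoc1 (1.22), Ccn2 (1.08) and the proprotein convertase Pcsk5 (1.01) rose as well, and the matrix protein gene Tgfbi fell (-1.55 ± 0.37, adjusted p = 0.0171). Between SG and HF, 3 fell and 1 rose (5% beside 5.11%). The falls were Msx2 (-3.17 ± 0.65, adjusted p = 0.00901), Dlx3 (-2.03) and Bmp8a (-1.80), and the rise was Tgfbi (1.34 ± 0.37, adjusted p = 0.0412), whose SG and HF arrays overlapped. Tgfbi had 10.00, 10.80 and 11.36 on the SG arrays, and without SG replicate 3 its rise did not pass (1.02, adjusted p = 0.101). Msx2 had 6.29, 7.64 and 9.93 and Dlx3 7.53, 7.64 and 9.29 on the SG arrays, again highest on replicate 3. Without it, the SG minus HF differences were -4.16 for Msx2 and -2.60 for Dlx3, and both were then lower in SG than in IFE (-1.30, adjusted p = 0.0163, and -1.22, adjusted p = 0.0022).

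Mesenchymal cells make several of these ligands and antagonists, so their markers are set beside the rises of Bmp4, Inhba, Fst, Fstl1 and Grem1. The dermal papilla list (12 genes) lay at 0.06 to 0.18 in SG, -0.03 to 0.07 in HF and -0.30 to 0.02 in IFE. Between SG and IFE, Sox2 (1.04), Vcan (1.09) and Enpp2 (1.80) rose and Hhip fell (-1.97). Between HF and IFE, Vcan (1.34) and Enpp2 (1.09) rose and Hhip fell (-2.11). The dermal fibroblast list (11 genes) lay at -0.08 to 0.37 in SG, -0.05 to 0.00 in HF and -0.26 to 0.02 in IFE, and Dcn rose (1.70) while Thy1 fell (-2.37) between HF and IFE. Dcn, which encodes the matrix proteoglycan decorin, had 7.49, 7.88 and 9.63 on the SG arrays, also highest on replicate 3, and its SG minus IFE difference was 1.05 with that array and 0.40 without it. Of 6 smooth muscle genes, Acta2, smooth muscle actin, rose in HF (1.96), and the list lay at -0.34 to 0.07 in SG, 0.27 to 0.34 in HF and -0.31 to -0.13 in IFE. The list of the resting follicle, which was high in both appendages, moved with the rises of Fst and Fstl1 in SG and HF and of Tgfb3 in SG. Of its 13 genes, 7 rose in SG against IFE and 9 in HF against IFE, among them Lgr5 (1.80 in SG and 2.23 in HF) and Krt15 (1.65 in SG and 1.37 in HF). Not all followed, as Krt75 rose in HF (1.70) but not in SG (0.08). Postn passed in neither (0.30 in SG and -0.58 in HF). No gene of these lists can be called absent, as no detection calls were used. The part of such cells in the pathway results was not tested.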

How the data were processed

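Probe set signals of a mouse exon array were measured in 3 SG, 3 HF and 3 IFE samples. The authors deposited a linear intensity for each of 154736 probe sets, and the submitters' processing notes name RMA, Affymetrix Power Tools and mm9 without versions or order. How probe sets were selected was not stated in the labels. For this work the log2 of each intensity was taken with no pseudocount or further normalization. Of the probe sets, 146964 had 1 symbol, 1060 several and 6712 none, and only the first were named. Old symbols were updated for 1754 genes through RefSeq names (GRCm38.p6), and 14472 of 14507 genes were found there.

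Differences were tested with limma (version 3.58.1, R version 4.3.3), which took all genes and all 9 arrays together, a mean for each compartment and moderated variances (eBayes), with Benjamini-Hochberg adjustment over 14507 genes. Errors of differences are SEs of that fit. The median SE of a log2 difference was 0.207, and the number of arrays limits the precision. Without detection calls, differences of dim genes may be compressed. Arrays correlated at 0.921 to 0.977 within and 0.846 to 0.93 between compartments. On simulated SG and IFE values of 14507 genes, it recovered 86 of 100 genes changed by 1.5 and 99 of 100 changed by 3 (log2), with 3 false calls. The simulated noise was independent between genes and arrays and held no difference in scaling between arrays. No change nearer to the size threshold was tried.

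The members, the other lists and the thresholds were chosen with earlier results of these data known. The rule for naming gave every array's value for changed members, then members past the p threshold alone, and the 5 changed other pathway genes with the smallest p per direction. Values of some further members and all 7 rises of the second list in HF were added after they were seen. The alternatives are named in the closing section. Groups followed the sample titles, and the labels give no batch.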

Additional observations from a re-analysis of the deposited data

How the results depend on the processing

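Each count and each of the 120 pairs of gene and comparison was recomputed with the replicate number as a block, a block for the letter that ends each array's name (letter block), median centring, quantile normalization, the dimmer 50% of genes left out, the mean over probe sets, the brightest probe set, eBayes with trend and robust, array weights, no log2 minimum, without each array in turn and without SG replicate 3 and HF replicate 2 together. Leaving out the dimmer genes left 16 pathway genes, and so 48 of the pairs, untested there. Centring each probe set before the median, and the second list and marker genes without SG replicate 3, were added after the data were seen. The letter block ended 4 calls (Tgfb2 and Acvr1 for SG minus IFE, Acvr1 and Bambi for SG minus HF). Its differences came only from arrays with letters c and d, as the arrays with a, b or e had no counterpart. Of the 16 calls, 2 (both of Bmp4) held in every alternative, 8 held without any single array, and 1 reversed: Tgfb2 for SG minus IFE, at 0.03 with the brightest probe set. The cause was not tested.

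The 4 falls in SG against IFE became 2 with the letter block, 0 with quantile normalization, 0 with median centring, 2 with the mean over probe sets, 2 with probe sets centred first, 8 with no log2 minimum and 8 without SG replicate 3 and HF replicate 2 together. The 4 rises in that comparison became 1 without the dimmer genes, where fewer genes were tested, 1 with the mean over probe sets and 1 with probe sets centred first. The 4 rises in HF against IFE became 1 with the brightest probe set. There, 1 fall appeared with array weights, 1 with no log2 minimum and 1 without the 2 arrays. The 4 falls in SG against HF became 2 with the letter block, 11 with no log2 minimum and 8 without the 2 arrays. There, 1 rise appeared with quantile normalization, 1 with median centring, 1 with array weights and 1 without the 2 arrays.

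Over all genes, the 741 changed in SG against HF became 392 with the letter block, and the 916 in HF against IFE became 597 of 7254 tested without the dimmer genes. With no log2 minimum the 3 totals were 3171 instead of 1377 (SG against IFE), 1750 (HF against IFE) and 1373 (SG against HF). The share of changed genes that were higher was 26.7% in SG against IFE, 46.8% in HF against IFE and 35.4% in SG against HF, and it was 56.1%, 58.2% and 50.1% with quantile normalization and 53%, 56.9% and 50.1% with median centring.

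Leaving out each array in turn gave 1 to 4 rises and 3 to 8 falls among the pathway genes in SG against IFE (1 rise without SG replicate 2, 2 without IFE replicate 1 or 2, and 8 falls without SG replicate 3), 3 to 5 and 0 to 1 in HF against IFE (the fall without IFE replicate 1), and 0 to 1 and 3 to 6 in SG against HF (the rise without SG replicate 3). Over all genes the totals ran from 1146 to 1752 in SG against IFE, from 763 to 1146 in HF against IFE and from 535 to 994 in SG against HF. Arrays with the same replicate number deviated from their group means with correlations of -0.019 to 0.225, and not every array correlated best with its own number (HF replicate 2 at 0.059 with IFE replicate 2 and 0.111 with IFE replicate 3), so the numbers were not taken to pair the samples. With the replicate block, SG against IFE had 4 rises and 4 falls among 1398 changed genes, HF against IFE 6 rises and 0 falls among 944, and SG against HF 0 rises and 4 falls among 781.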
